A study of Arabidopsis thaliana with 3 samples.

Results

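The 9 genes described here encode the enzymes that make and use indole-3-acetaldoxime and indole-3-acetonitrile in Arabidopsis thaliana: CYP79B2, CYP79B3, CYP71A12, CYP71A13, PAD3 and the nitrilases NIT1, NIT2, NIT3 and NIT4. They were taken by locus from the 33602 genes listed, and all 9 passed the filter of 30 counts summed over the libraries, as did 20109 genes in all. The 3 RNA-seq libraries came from first-pair rosette leaves of Col-0, with a single library in each group. They are an explant library, taken from wounded leaves at 2 days, a control at 2 days, and a control titled T0. Seedlings were grown on half-strength MS medium and explants on B5 medium that held no carbohydrate, under long days, and the stage of all 3 libraries is given as 12 days after sowing. The series text speaks of a wound site and of the remaining leaf, and the labels do not say which part of a leaf, or how many leaves, each library holds. Nor do they say whether the leaves of the 2-day control were detached.

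As background, CYP79B2 and CYP79B3 are cytochromes P450 that turn tryptophan into indole-3-acetaldoxime, the branch point for indole glucosinolates, for the phytoalexin camalexin and for a minor route to auxin. CYP71A12 and CYP71A13 act on the aldoxime and lead to indole-3-acetonitrile and related cyanides, and PAD3 (CYP71B15) closes the ring in the last steps of camalexin. The nitrilases NIT1, NIT2 and NIT3 can hydrolyse indole-3-acetonitrile to the auxin indole-3-acetic acid and also take nitriles from glucosinolates, whereas NIT4 acts on beta-cyanoalanine in the removal of cyanide. In leaves the camalexin genes are known for their induction by pathogens and cell damage.

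The libraries held 43099934 to 46713257 gene counts. Levels are given as CPM, counts of the gene per 1000000 counts of its library, after scaling of the library totals by TMM. Ratios between libraries carry in brackets an exact 95% interval, computed from how the counts of a gene divide between both libraries. Higher and lower, as calls, mean that the whole interval was past 2-fold. With 1 library per group there was no estimate of spread, no test and no p-value, so each call is a comparison of single libraries. The intervals cover counting error only, and the reads, having no molecular identifiers, need not each be a separate molecule. Of the leaf markers, all 5 mesophyll genes were counted in every library, with summed levels of 14832 CPM at T0, 7886 CPM in the 2-day control and 5686 CPM in the explant. In the same order CAB3, at 3377, 367 and 228.7 CPM, and LHCA3, at 3020, 730.2 and 488.4 CPM, fell most. RBCS1A, at 2395, 2001 and 1712 CPM, RCA, at 3695, 2628 and 2113 CPM, and CA1, at 2345, 2160 and 1144 CPM, fell less. The root markers EXPA7 and PLT1 were at 0 in every library and the summed level of the 4 root markers did not exceed 0.239 CPM. Of the 4 flower and seed markers, SESA3 was at 0 throughout and the sum was 8.47 CPM at T0, 1.03 CPM in the 2-day control and 7.15 CPM in the explant. Summed levels of the 3 phloem and xylem markers were 371.8, 295.3 and 132.5 CPM at T0, in the 2-day control and in the explant, those of the 3 epidermis markers 536.2, 436.3 and 235.7 CPM, and those of the 3 guard cell markers 127.3, 89.6 and 69.1 CPM. Of the epidermis markers, ATML1, at 189.9, 141.9 and 31.5 CPM, and FDH, at 335.4, 293 and 201.7 CPM, fell at each step. PDF1 did not, at 10.9, 1.47 and 2.45 CPM, with the explant 1.67-fold over the 2-day control (1.235 to 2.27). The guard cell sum followed KAT1, at 75.3, 34.5 and 17.7 CPM, while FAMA, at 35.2, 37.0 and 32.9 CPM, and MYB60, at 16.9, 18.1 and 18.5 CPM, were about level. The part of these markers in the results below was not tested, and in bulk RNA fewer cells of a type and less RNA per cell cannot be told apart.

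In the explant 5 of the 9 genes were higher than in the 2-day control and 2 were lower. The higher ones were CYP71A12, PAD3, NIT1, NIT2 and NIT3, the lower ones CYP79B3 and CYP71A13. Over all genes past the filter 10.0% were higher and 6.74% lower in that comparison, and the median log2 ratio was 1.04 over the 9 genes and -0.00 over all. Against T0 the explant was higher in 6 of 9 and lower in none of them, where 17.8% of all genes were higher and 13.3% lower, with medians of 1.96 and 0.03. The 2-day control was higher than T0 in 6 of 9 and lower in none, where 8.69% of all genes were higher and 8.43% lower, with medians of 1.56 and 0.04. The 3 comparisons share libraries, so their counts are not independent of each other. With scaling by total counts the median over all genes became 0.31 on the log2 scale for each 2-day library against T0, and the share of higher genes among all called genes from 57.1% to 70.1% for the explant and from 50.8% to 67.7% for the 2-day control.

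**Figure D1:**
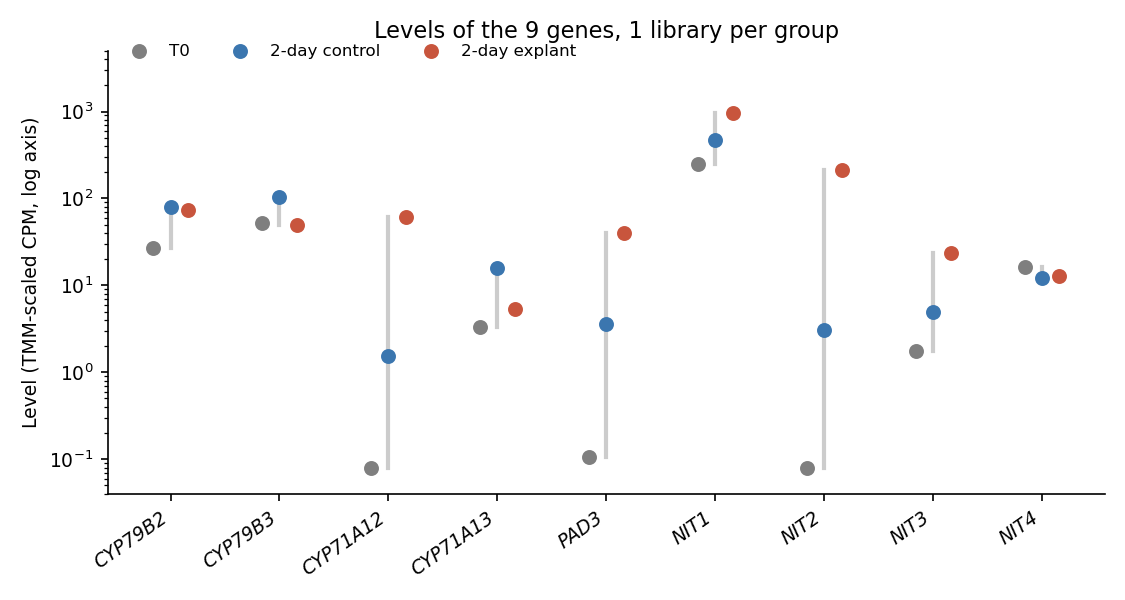
Level of each of the 9 genes in TMM-scaled CPM on a log axis, 1 point per library, with a grey bar from the lowest to the highest library. CYP71A12, PAD3 and NIT2 span the widest ranges, from about the floor at T0 to 60.7, 40.4 and 213.9 CPM in the explant, while NIT4 stays between 12.3 and 16.3 CPM.

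The first enzymes of the route, CYP79B2 and CYP79B3, were well expressed in every library, and their order changed from T0 to the explant. CYP79B2 (AT4G39950) had 1016 counts at T0, 3773 in the 2-day control and 3649 in the explant, or 26.8, 79.1 and 72.7 CPM. It was high in both 2-day libraries, 2.95-fold over T0 in the control (2.75 to 3.17) and 2.71-fold in the explant (2.53 to 2.91). Between the 2-day libraries its ratio was 0.919 (0.878 to 0.962), within 2-fold. CYP79B3 (AT2G22330) had 1974, 4983 and 2496 counts, or 52.1, 104.5 and 49.7 CPM. The 2-day control alone was high: the explant was 2.10 times lower than it (2.00 to 2.21) and at 0.955 of T0 (0.899 to 1.01). This call rests close to the limit and was lost with DESeq2 size factors, where the ratio was 0.485 (0.462 to 0.509). The 2-day control to T0 ratio of 2.01 (1.90 to 2.11) fell just short of a call. CYP79B2 held 34.0% of the pair's counts at T0 (exact binomial 95% interval 32.3% to 35.7%), 43.1% in the 2-day control (42.1% to 44.1%) and 59.4% in the explant (58.1% to 60.6%). The transcripts of this pair were 81.3% identical and shared no run of 50 bases.

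The next step showed the sharpest exchange between related genes. CYP71A12 (AT2G30750) had 3 counts at T0, 74 in the 2-day control and 3048 in the explant, or 0.0791, 1.55 and 60.7 CPM. The 3 libraries were far apart, and the explant stood 39.1-fold over the 2-day control (31.1 to 49.97) and 767-fold over T0 (262 to 3721). The 2-day control was 19.6-fold over T0 (6.45 to 97.2), with 3 counts at T0 setting the width of both intervals. CYP71A13 (AT2G30770) had 126, 755 and 269 counts, or 3.32, 15.8 and 5.36 CPM. Here the 2-day control was the high library, 4.76-fold over T0 (3.94 to 5.80), and the explant was 2.95 times lower than it (2.57 to 3.41). Against T0 the explant ratio of CYP71A13 was 1.61 (1.30 to 2.01), not called. CYP71A12 thus held 2.33% of the counts of both genes at T0 (0.482% to 6.65%), 8.93% in the 2-day control (7.07% to 11.1%) and 91.9% in the explant (90.9% to 92.8%). Summed over both genes, counts were 3.80-fold higher in the explant relative to the 2-day control (3.52 to 4.11) and 19.4-fold higher than at T0 (16.3 to 23.3).

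Both genes lie on chromosome 2 and their transcripts were 90.4% identical over 1494 bases, with a longest shared run of 59 bases. Of the 50-base windows of CYP71A12, 2.70% also occurred in CYP71A13 or CYP71A18, of those of CYP71A13 0.692% occurred in CYP71A12, and no window of 100 bases was shared. CYP71A18 had a single count, in the explant. The CYP71A13 values have a further limit: 22.1% of its exon bases lie in the gene model of its neighbour AT2G30766 on the other strand, and the strand setting of the counting is not given in the sources used here. AT2G30766 had 99 counts at T0, 998 in the 2-day control and 11 in the explant, so that it too was highest in the 2-day control, by 8.01-fold over T0 (6.51 to 9.95) and by 95.5 times over the explant (53.2 to 192). Of a list of 7 iron deficiency genes that held this locus, all 7 were higher in the 2-day control relative to T0 and all 7 lower in the explant relative to the 2-day control. Over all genes 8.69% were higher in the first comparison and 6.74% lower in the second. The list was chosen with earlier results of these data known, and bHLH38 and bHLH39 passed the filter only through the 2-day control, where they were high. The factors bHLH38, bHLH100 and bHLH101 of that list, regulators of iron uptake, were at 0 in the explant and at 850, 946 and 536 counts in the 2-day control, at least 298, 332 and 188 times lower by the floor of 3 counts per library. Their part in the CYP71A13 ratios was not tested.

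**Figure D2:**
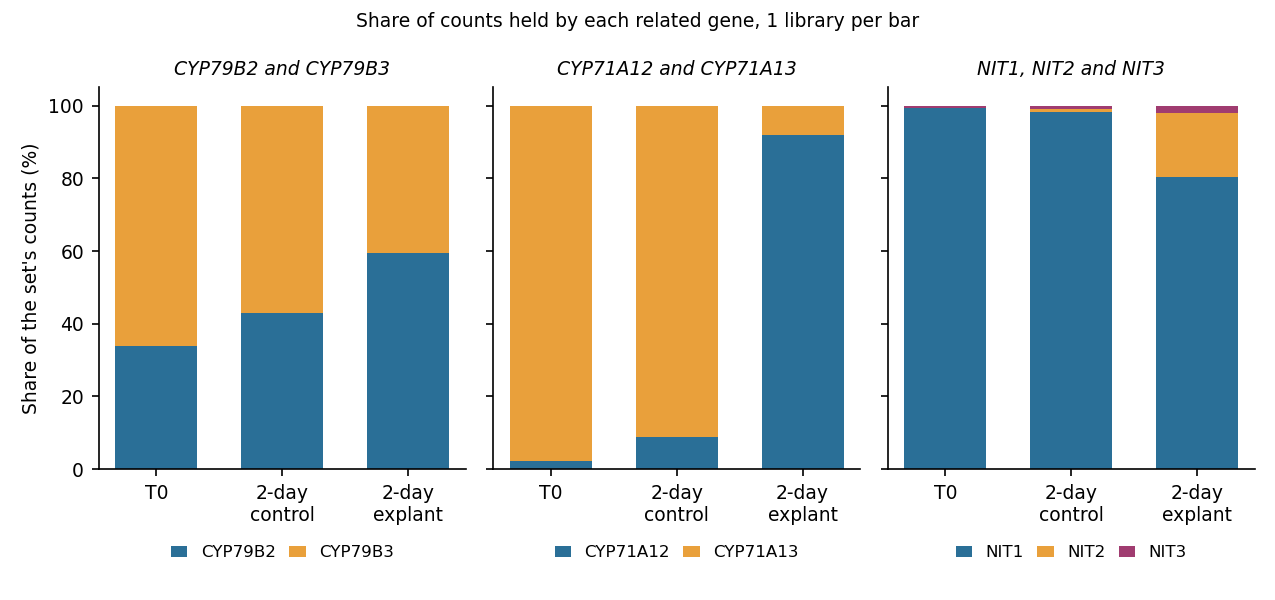
Share of counts, in percent, held by each gene of 3 sets of related genes, 1 stacked bar per library. CYP71A12 goes from 2.33% of its pair at T0 to 91.9% in the explant, and NIT2 from 0.0316% of the NIT1, NIT2 and NIT3 counts to 17.7%.

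PAD3 (AT3G26830), the enzyme of the last steps of camalexin synthesis, had 4 counts at T0, 170 in the 2-day control and 2026 in the explant, or 0.106, 3.56 and 40.4 CPM. All 3 libraries were set apart in that order. The ratio of the explant to the 2-day control was 11.3 (9.68 to 13.3). PAD3 was close to the floor of 3 counts at T0, so that the ratios to T0 of 382 for the explant (149 to 1405) and 33.8 for the 2-day control (13.0 to 125) have wide intervals. No 50-base window of its transcript occurred in another gene. PAD3 and CYP71A12 had the same order of libraries, T0 lowest and the explant highest, whereas CYP71A13, which acts before PAD3 in camalexin synthesis, was highest in the 2-day control.

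Of the nitrilases, NIT1 was the most abundant of the 9 genes in every library and NIT2 had the largest ratio of the 9 in each comparison, with intervals that overlapped those of CYP71A12 and PAD3 against T0. NIT1 (AT3G44310) had 9439 counts at T0, 22429 in the 2-day control and 48692 in the explant, or 249, 470.2 and 969.7 CPM. The explant was 2.06-fold over the 2-day control (2.03 to 2.10) and 3.89-fold over T0 (3.81 to 3.98). The 2-day control over T0 gave 1.89 (1.84 to 1.93), under the limit of 2-fold. NIT2 (AT3G44300) had 3, 147 and 10742 counts, or 0.0791, 3.08 and 213.9 CPM. It was near the floor at T0 and the second most abundant of the 9 genes per length in the explant, 69.4-fold over the 2-day control (59.0 to 82.3) and 2703-fold over T0 (925 to 13108). Its explant ratio to T0 ranked 11th from the highest of 20109 genes. NIT3 (AT3G44320) had 67, 233 and 1194 counts, or 1.77, 4.89 and 23.8 CPM. The explant was 4.87-fold over the 2-day control (4.23 to 5.63) and 13.5-fold over T0 (10.5 to 17.5), and the 2-day control was 2.76-fold over T0 (2.10 to 3.68).

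NIT2, NIT1 and NIT3 are neighbours on chromosome 3 in that order. NIT1 and NIT2 transcripts were 88.9% identical over 1128 bases with a longest shared run of 104 bases, NIT1 and NIT3 83.5% with a run of 58, and NIT2 and NIT3 84.5% with a run of 49. Of the 50-base windows 4.91% of NIT1, 5.79% of NIT2 and 0.612% of NIT3 occurred in another of the set, so counts from such stretches are uncertain. NIT2 had 3 counts at T0 beside 9439 of NIT1, a share of 0.0316% of the set (0.00651% to 0.0922%). That share was 0.645% in the 2-day control (0.545% to 0.757%) and 17.7% in the explant (17.4% to 18.0%). NIT3 held 0.705%, 1.02% and 1.97% of the counts. Summed over NIT1, NIT2 and NIT3, the level was 250.9 CPM at T0, 478.2 CPM in the 2-day control and 1207 CPM in the explant, a ratio of 2.53 between the 2-day libraries (2.49 to 2.56). The summed ratio of the 2-day control to T0 was 1.91 (1.86 to 1.95), under the limit of 2-fold.

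NIT4 (AT5G22300), on chromosome 5, was called in no comparison. It had 616, 585 and 636 counts at T0, in the 2-day control and in the explant, or 16.3, 12.3 and 12.7 CPM. With TMM scaling T0 was the highest library, beyond counting error but within 2-fold, and the 2-day libraries were level. With total counts T0 was not set apart. The ratios to T0 were then 0.953 for the explant (0.851 to 1.07) and 0.908 for the 2-day control (0.809 to 1.02). The ratio between the 2-day libraries was 1.03 (0.922 to 1.16), and those to T0 were 0.779 for the explant (0.697 to 0.872) and 0.755 for the 2-day control (0.673 to 0.846), all within 2-fold. NIT4 was 74.4% identical to NIT1 over 698 bases and shared no 50-base window with any gene.

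**Figure D3:**
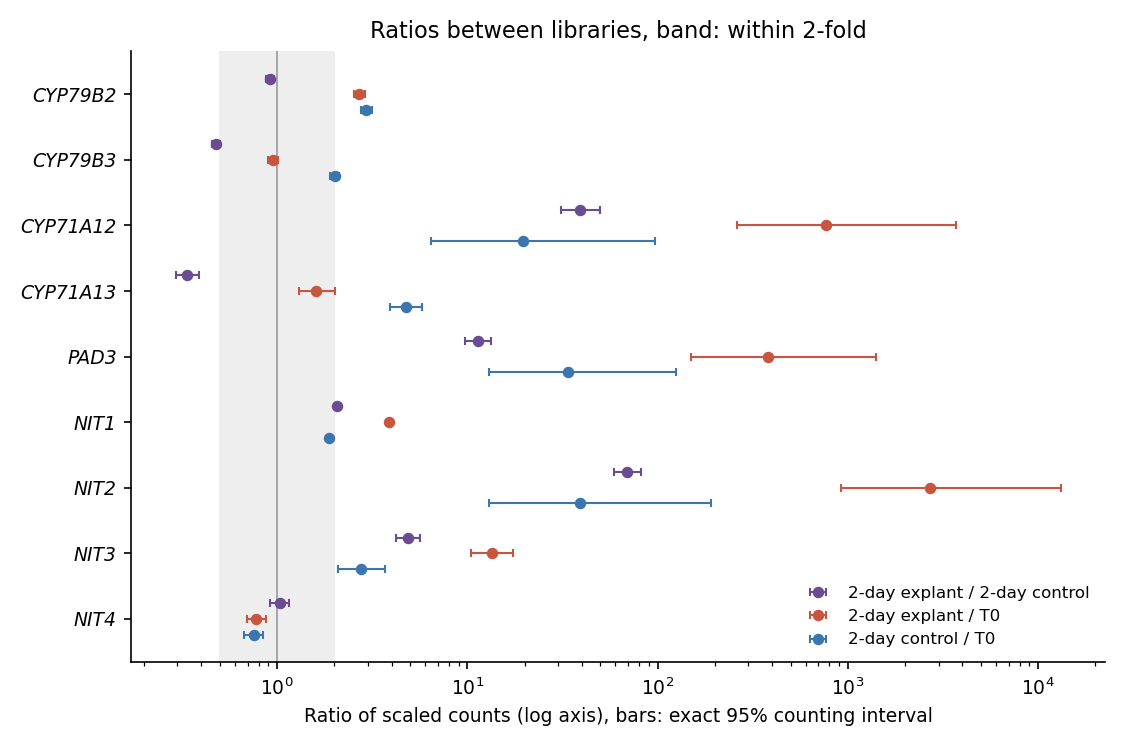
Ratio of scaled counts between libraries for each gene on a log axis, with bars for the exact 95% counting interval and a grey band for ratios within 2-fold. NIT2, CYP71A12 and PAD3 lie farthest to the right against T0, and CYP71A13 and CYP79B3 lie left of the band in the explant against the 2-day control.

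Levels between genes were compared per kilobase of merged exons. At T0 the order from the highest was NIT1, CYP79B3, CYP79B2, NIT4, CYP71A13, NIT3, PAD3, CYP71A12 and NIT2, from 100.8 to 0.0516 CPM per kilobase. The last 3 of these did not differ beyond their exact Poisson intervals. In the 2-day control NIT1 stood at 190.3 CPM per kilobase and CYP71A12 was last at 1.04, and NIT2 and PAD3, at 2.01 each, did not differ. In the explant the order was NIT1 at 392 CPM per kilobase, NIT2 at 139, CYP71A12 at 40.6, CYP79B2 at 34.0, PAD3 at 22.7, CYP79B3 at 22.2, NIT3 at 15.7, NIT4 at 5.18 and CYP71A13 at 3.59. PAD3 and CYP79B3 did not differ there beyond counting error. CYP71A13 thus stood above CYP71A12 in the 2-day control, at 10.6 CPM per kilobase, and last of the 9 genes in the explant.

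Among regulators of camalexin genes, WRKY33, MYB51 and NAC042 were higher in the explant relative to the 2-day control, and NAC042 was the 1 gene called in the explant against T0. Of 7 listed, 6 passed the filter: 3 were higher and none lower in the explant relative to the 2-day control, 1 higher and none lower than at T0, and 2 lower and none higher in the 2-day control relative to T0. Over all genes the shares higher were 10.0%, 17.8% and 8.69% in these comparisons, and the shares lower 6.74%, 13.3% and 8.43%. The 1 gene higher in the explant than at T0 was too few to set apart from the 17.8%. The median log2 ratios of the list were 0.84, -0.42 and -0.26 in these comparisons. WRKY33, a transcription factor that activates PAD3 and CYP71A13, had 12416 counts at T0, 1997 in the 2-day control and 9177 in the explant. It was lowest in the 2-day control, where PAD3 and CYP71A13 were above T0, and its part in their levels was not tested. In the 2-day control WRKY33 was 7.82 times lower than at T0 (7.46 to 8.21), with the explant 4.37-fold over the 2-day control (4.16 to 4.58). Its explant ratio to T0 was 0.558 (0.543 to 0.573), below T0 but within 2-fold. NAC042, a NAC factor that acts on camalexin synthesis, had 3, 9 and 88 counts, 9.29-fold higher in the explant relative to the 2-day control (4.68 to 21.0). MYB51, an activator of indole glucosinolate genes, was 2.16-fold higher in the explant relative to the 2-day control (2.01 to 2.32), while MYB34, of the same function, gave 0.817 (0.749 to 0.892). MPK3, a kinase upstream of WRKY33, was 2.53 times lower in the 2-day control relative to T0 (2.45 to 2.61). MYB122, a MYB factor of indole glucosinolate genes like MYB51, was under the filter, with 12 counts from the explant and 0 from the other libraries.

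Among the enzymes that join glutathione to the nitrile, GSTF6 and GSTU4 had the order of libraries of PAD3. Of the 6 genes for conjugation and export, 2 were higher in the explant relative to the 2-day control and 4 higher than at T0, and 1 was higher in the 2-day control relative to T0. None was lower, and the medians were 0.69, 1.26 and 0.57. Over all genes the shares higher were 10.0%, 17.8% and 8.69% in these comparisons, and the shares lower 6.74%, 13.3% and 8.43%. GSTF6, a glutathione transferase of camalexin synthesis, had 908, 2067 and 14514 counts at T0, in the 2-day control and in the explant, 6.67-fold higher in the explant relative to the 2-day control (6.37 to 6.99). GSTU4, of the same enzyme family, had 6, 253 and 1152 counts and a ratio of 4.33 (3.77 to 4.98). GGP1, a gamma-glutamyl peptidase that acts on the conjugate, was 2.41-fold higher in the explant relative to T0 (2.31 to 2.51) and ABCG34, an exporter of camalexin, 2.38-fold (2.29 to 2.47). ABCG36 gave 0.957 in the same comparison (0.947 to 0.967) and ABCG40 1.34 (1.10 to 1.64).

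Of the 8 genes of other routes from the aldoxime, 7 passed the filter. In the explant 2 were higher and none lower than in the 2-day control, and 4 were higher and 1 lower than at T0; the 2-day control had 1 higher and 1 lower than T0. The medians were 0.58, 1.37 and 0.76. Over all genes the shares higher were 10.0%, 17.8% and 8.69% in these comparisons, and the shares lower 6.74%, 13.3% and 8.43%. The locus AT1G26380 had 8 counts at T0, 19 in the 2-day control and 866 in the explant, 43.3-fold over the 2-day control (27.6 to 72.3). CYP82C2, which hydroxylates the cyanogenic relatives of camalexin, had 0, 4 and 61 counts, 14.5-fold over the 2-day control (5.38 to 54.9). CYP83B1, the P450 that takes the aldoxime into indole glucosinolates, was 3.83-fold higher in the explant relative to T0 (3.70 to 3.98) and 1.49-fold over the 2-day control (1.46 to 1.53), the second within the limit. SUR1, a later enzyme of that branch, was 2.58-fold over T0 in the explant (2.45 to 2.73). AMI1, an amidase that can make auxin from indole-3-acetamide, was lower than T0 in both 2-day libraries. It was 3.69 times lower in the explant (3.57 to 3.81) and 2.10 times lower in the 2-day control (2.05 to 2.16).

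**Figure D4:**
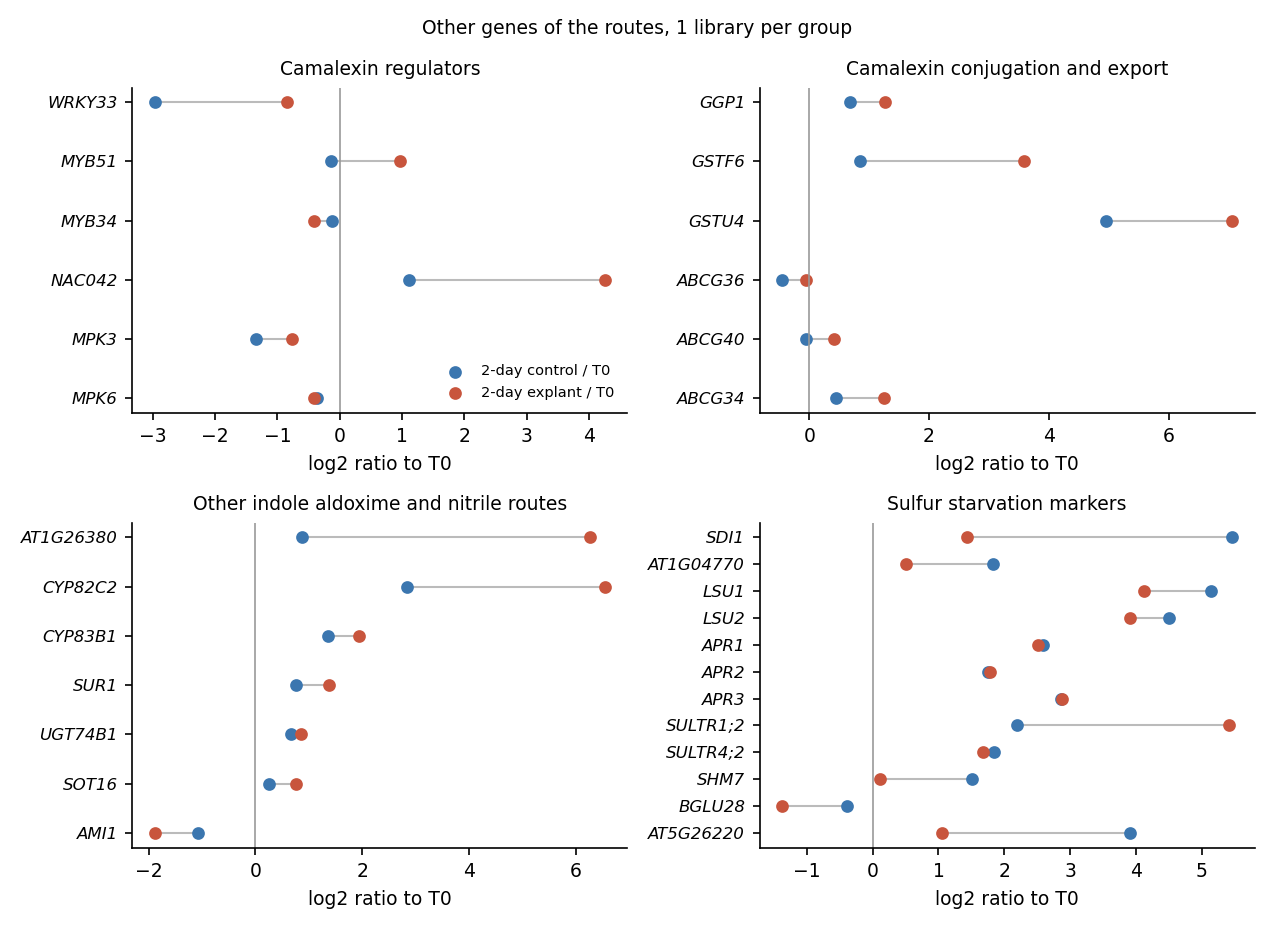
Log2 ratio to T0 of other genes of these routes and of sulfur starvation markers that passed the filter, with 1 blue point for the 2-day control, 1 red point for the 2-day explant and a grey line joining both. GSTF6, AT1G26380 and CYP82C2 lie much farther right in the explant, while SDI1 and AT5G26220 lie farther right in the 2-day control.

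Genes that form nitriles from glucosinolates were read beside the nitrilases. Of 10 listed 7 passed the filter, and in the explant 1 was lower and none higher than in the 2-day control, too few to set apart from the 10.0% and 6.74% of all genes, and 1 higher and 2 lower than at T0. The 2-day control had 1 higher and 1 lower than T0, and the medians were -0.07, -0.45 and -0.21. All-gene shares against T0 were 17.8% higher and 13.3% lower for the explant, with 8.69% and 8.43% for the 2-day control. This list's counts against T0 were likewise too few to set apart from those shares. The myrosinase gene TGG2 was 2.45 times lower in the explant relative to the 2-day control (2.40 to 2.51), and TGG1, of the same function, 1.88 times lower (1.86 to 1.91), within the limit. NSP5, a nitrile-specifier protein gene, gave 1.91 in the same comparison (1.84 to 1.98). ESM1, an epithiospecifier modifier, was higher than T0 in both 2-day libraries, 3.52-fold in the explant (3.45 to 3.60) and 2.59-fold in the 2-day control (2.535 to 2.65).

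For NIT4, the genes of ethylene synthesis, which releases cyanide, and of cyanide removal were set beside it. Of 8 genes 2 were higher and none lower in the explant relative to the 2-day control, 1 higher and none lower than at T0, and 1 lower and none higher in the 2-day control relative to T0, with medians of -0.04, 0.01 and 0.08. Over all genes the shares higher were 10.0%, 17.8% and 8.69% in these comparisons, and the shares lower 6.74%, 13.3% and 8.43%. The counts of this list were too few to set apart from these shares. CYSC1, the beta-cyanoalanine synthase that supplies the NIT4 substrate, was at 348.8, 542.4 and 614.2 CPM at T0, in the 2-day control and in the explant, with no ratio called. ACS2, an enzyme that makes the ethylene precursor, had 8, 11 and 176 counts and was 15.2-fold higher in the explant relative to the 2-day control (8.29 to 31.0). ACS6, of the same function, had 3164, 739 and 4257 counts and a ratio of 5.47 (5.06 to 5.92).

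NIT3 is known for its induction by lack of sulfur, so 12 sulfur starvation markers were read beside it. In the 2-day control 11 of 12 were higher than at T0 and none lower, in the explant 7 were higher and none lower than at T0, and against the 2-day control the explant had 1 higher and 4 lower, with medians of 2.39, 1.73 and -0.78. Over all genes the shares higher were 8.69%, 17.8% and 10.0% in these comparisons, and the shares lower 8.43%, 13.3% and 6.74%. SDI1 had 12, 693 and 44 counts at T0, in the 2-day control and in the explant, 16.6 times lower in the explant relative to the 2-day control (12.2 to 23.0). AT5G26220 was 7.28 times lower in that comparison (5.93 to 9.02) and SHM7 2.65 times lower (2.50 to 2.80). The sulfate transporter SULTR1;2 had 128, 738 and 7249 counts, 9.33-fold higher in the explant (8.65 to 10.1). APR3, an enzyme of sulfate reduction, was level between the 2-day libraries at 1.01 (0.976 to 1.04) and 7.31-fold over T0 in the explant (6.78 to 7.89). Of these, SULTR1;2 had the order of NIT3, with the explant highest, and SDI1 did not.

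The genes whose pair of log2 ratios to T0 lay nearest to those of a member were looked up among 8679 genes with a symbol, over 3 libraries. Nearest to CYP71A13 were SOFL1 at a Euclidean distance of 0.22 on the log2 scale, DOGT1 at 0.31 and PP2-A10 at 0.31, with 127, 1981 and 48 counts in the 2-day control, their highest library. For NIT2 and PAD3 the distances are not given, because these genes and their nearest had 0 to 4 counts at T0, so that their ratios to T0 depend on the prior count. The log2 ratio of the explant to T0 was 11.18 for NIT2 and 8.41 for PAD3 with the prior count of 0.5, and 9.99 and 7.41 with 5. The genes listed nearest to NIT2 were UGT76B1, FRD3 and WRKY31, with 1508, 1882 and 1700 counts in the explant and 0 at T0 in each. Those listed nearest to PAD3 were ATOBGM, LAS1 and ELI3-2, with 1127, 244 and 848 counts in the explant and 2, 0 and 2 at T0. Which genes come nearest to NIT2 and PAD3 may therefore change with the prior count.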

How the data were processed

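The deposited files hold raw read counts for each gene, which the authors left without normalization. Per the submitters' processing notes FastQC, HTSeq and DESeq were used with the build TAIR10; no aligner, annotation release, strand setting or kit is named in the sources used here. Lines that name no gene were left out. Reads marked ambiguous between genes, which stand in such a line and not under a gene, made up 2.12% to 2.18% of the sum of all lines. Reads in no gene made up 0.677% to 0.763%. The line for reads without a unique alignment held 0 in every library. How reads that match more than a single gene were treated before counting is therefore not known, which bears on the split between near-identical genes.

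Counts were scaled by TMM (edgeR 4.0.16, R 4.3.3), with factors of 1.07 for the explant, 1.06 for the 2-day control and 0.879 for T0. Genes with at least 30 counts over the 3 libraries were kept. Ratios have exact Clopper-Pearson 95% intervals, and log2 ratios a prior count of 0.5. A floor of 3 counts per library applies where a count is 0. Scripts were tested on simulated counts. Intervals used scipy 1.17.1 under Python 3.11.15, identities blastn 2.17.0, and alternative size factors DESeq2 1.42.0. Tables were handled in pandas 2.3.3 and numpy 2.4.6 and drawn with matplotlib 3.10.9.

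Exon lengths, neighbours, overlaps and identities came from the TAIR10.1 reference annotation, which is not the build the submitters name, so no coordinates are given. By locus tag 32835 of 33602 genes matched. The 9 genes and 7 further lists were chosen with earlier results of these data known. All members are named, of each other list up to 3 genes per direction whose nearer interval bound lay farthest from 1 in the explant against the 2-day control, plus genes a comparison needed, and the 3 nearest patterns of CYP71A13, PAD3 and NIT2. Genes such as MYB34, ABCG36, CYP83B1, SUR1, TGG1, NSP5, ESM1, CYSC1 and APR3 were added for their role after their values were seen.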

Additional observations from a re-analysis of the deposited data

How the results depend on the processing

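Of 258 member ratios recomputed under the alternatives, 237 stayed on their side of the limit, 15 lost a call, 5 gained one and 1 was reversed. The reversal was CYP71A13 in the explant against the 2-day control, at 3.80 (3.52 to 4.11) when its counts were summed with those of CYP71A12, since most of the explant's counts of that sum are CYP71A12. The count of 2 lower members in the explant against the 2-day control became 1 with DESeq2 size factors, total counts, a wider interval level and thinning to the smallest library, and 0 at a 4-fold limit; CYP79B3 was the call lost in each, with CYP71A13 also lost at 4-fold. The count of 6 higher members in the 2-day control against T0 became 3 at 4-fold. With total counts CYP79B3 and NIT1 gained a call there, at 2.41 (2.29 to 2.54) and 2.27 (2.22 to 2.33). NIT3 lost its call there with a wider interval level. Summed over NIT1, NIT2 and NIT3, the ratio of the 2-day control to T0 was 1.91 (1.86 to 1.95), so the calls of NIT2 and NIT3 were lost. The alternatives for the other lists, thinning for the members' counts, and the filter, fold limit and interval level for single ratios were added after the data were seen. No paired analysis was possible because each group has 1 library. Depth limits the ratios to T0 of CYP71A12, PAD3 and NIT2, which rest on 3 or 4 counts there.

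Counts of the other lists that moved by over 1.5 times were as follows. In the explant against the 2-day control, the aldoxime routes had 1 higher at 150 counts and 1 lower at 1.5-fold. The nitrile list there had 2 higher and 3 lower at 1.5-fold and 0 lower at 4-fold, conjugation and export 1 higher at 4-fold, and sulfur markers 2 lower at 4-fold. In the explant against T0, camalexin regulators had 2 higher with total counts, with no filter beyond 1 count and at 1.5-fold, 0 higher at 150 counts and 2 lower at 1.5-fold. The cyanide list there had 2 higher with total counts and at 1.5-fold, and the nitrile list 2 higher at 1.5-fold, with 0 higher and 0 lower at 4-fold. At 4-fold conjugation and export had 2 higher there, and the aldoxime routes 2 higher and 0 lower. In the 2-day control against T0, conjugation and export had 2 higher with total counts and 3 at 1.5-fold. The aldoxime routes and the nitrile list had 0 lower with total counts, and the cyanide list 1 higher. At 1.5-fold the aldoxime routes had 3 higher and the cyanide list 2. At 4-fold the regulators had 1 lower, the aldoxime routes and the nitrile list 0 in either direction, and the sulfur markers 6 higher.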
